A study of Mus musculus with 9 samples.

Results

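The clustered protocadherins are 58 genes of the 24624 in the table, chosen by symbol as the Pcdha, Pcdhb and Pcdhg genes of the alpha, beta and gamma clusters. There were 14 alpha members, 22 beta members and 22 gamma members, the last made up of 12 A-type, 7 B-type and 3 C-type genes. RNA was measured in bulk cortex of newborn (postnatal day 0) mice, with 1 library from the cortical hemispheres of each of 9 mice. Of these, 3 mice were Fezf2+/+, 4 were Fezf2-/- and 2 were Fezf2-/-; Fezf2-EnR, all from crosses of Fezf2+/- mice with Fezf2+/- mice that carried the Fezf2-EnR transgene. Fezf2-/- mice lack FEZF2, a zinc-finger transcription factor of deep-layer projection neurons. Fezf2-EnR is a bacterial artificial chromosome in which the Fezf2 regulatory region drives the DNA-binding part of FEZF2 joined to the repressor domain of engrailed, so this group carries the null alleles and the transgene, which serves as a repressor form of FEZF2. The litters were sampled unevenly: m1 gave 2 Fezf2+/+ and 2 Fezf2-/- mice, m2 gave 1 Fezf2+/+ and 1 Fezf2-/-; Fezf2-EnR mouse, and m3 gave 2 Fezf2-/- and 1 Fezf2-/-; Fezf2-EnR mouse. In bulk tissue, fewer cells of a type and less RNA per cell cannot be told apart.

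Clustered protocadherins are cadherin-like adhesion proteins of the neuronal surface. Each neuron transcribes its own combination of members by choosing among promoters, and the resulting proteins pair with identical proteins on other membranes, by which sister branches of 1 neuron recognise and avoid each other. An alpha or gamma transcript joins 1 variable exon, which holds the promoter and encodes the extracellular, transmembrane and proximal cytoplasmic parts, to a common set of constant exons that encode the shared end of the cytoplasmic tail. Beta genes are single-exon genes without constant exons. The C-type members (Pcdhac1, Pcdhac2, Pcdhgc3, Pcdhgc4 and Pcdhgc5) stand at the ends of their clusters next to the constant exons and are less subject to the random choice that governs the others. The comparisons ask whether the level of any member differed between the genotypes.

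The libraries held between 18716575 and 25127623 recovered reads. The targeted gene agreed in direction with the labels: Fezf2 was at 979 to 1232 normalized reads (reads divided by a size factor per library) in the 3 Fezf2+/+ libraries, at 193 to 242 in the 4 Fezf2-/- libraries and at 907 to 1000.9 in the 2 Fezf2-/-; Fezf2-EnR libraries, where the row cannot separate endogenous from transgene sequence. The 9 markers of cortical excitatory neurons summed to between 52826 and 64660 in every library, and 1 of them, Emx1, was lower in Fezf2-/- than in Fezf2+/+ libraries (log2 fold change -0.44, limma adjusted p = 0.0296). The 3 choroid plexus markers summed to 8.0 at most. The 7 interneuron markers summed to 6042 to 6337 in Fezf2+/+, 7571 to 8666 in Fezf2-/- and 6226 to 7119 in Fezf2-/-; Fezf2-EnR libraries, with none at 0 and none called. The 4 proliferation markers summed to 1224 to 1827, 1446 to 2050 and 1995 to 2655 in the same order, and the 5 red blood cell genes to 5697 to 8386, 5107 to 8883 and 4203 to 4554. The 5 radial glia and astrocyte markers summed to 12934 to 13568, 13784 to 16127 and 15002 to 16155, and the 4 oligodendrocyte precursor markers to 4635 to 4936, 5278 to 5557 and 5154 to 5164, so both were higher than in every Fezf2+/+ library in the other 2 groups, with none of these genes called. The part of any of these in the values below was not tested.

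All 58 members lie on the plus strand of mouse chromosome 18 (GRCm38, GENCODE M21), the alpha cluster from 36930184 to 37187661, the beta cluster from 37264938 to 37524479 and the gamma cluster from 37661793 to 37841873. The 3 alpha constant exons (37156155 to 37156213, 37159265 to 37159353 and 37184946 to 37187657) hold 59, 89 and 2712 bases, 2860 in all, including the 3′ untranslated region of every alpha transcript. The 3 gamma constant exons (37825021 to 37825079, 37833265 to 37833353 and 37839903 to 37841870) hold 59, 89 and 1968 bases, 2116 in all. Bases shared with another member were between 37.9% and 54.9% of the annotated exon sequence of each alpha and gamma member, with Pcdhgc5 (27.8%), Pcdhgb5 (31.5%) and Pcdhga12 (31.8%) below that and Pcdhga4 (66.8%) above it, the last because part of its variable exon also lies in an annotated exon of Pcdhgb1. Beta members share no exon, except that Pcdhb21 and Pcdhb22 overlap by 455 bases.

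**Figure D1:**
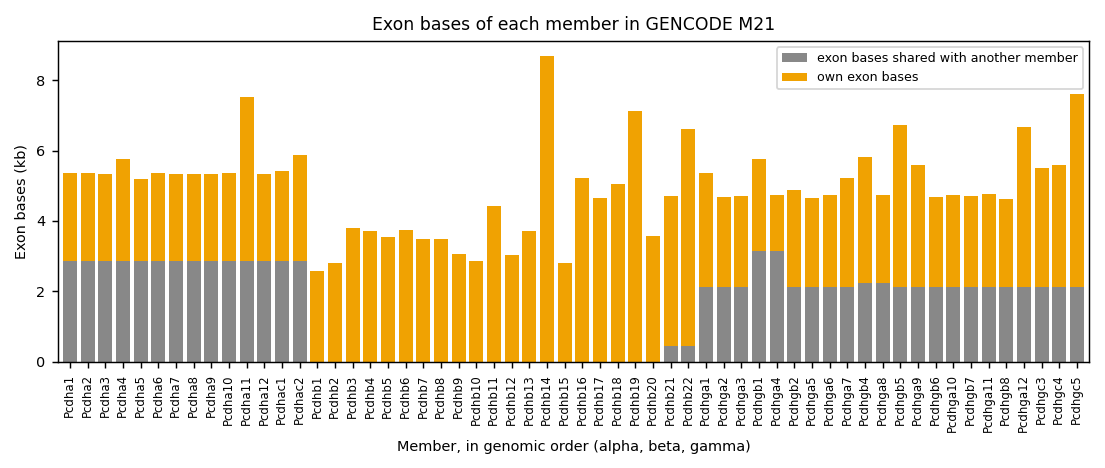
Exon bases in kb (y axis) of each of the 58 members in genomic order (x axis), split into bases shared with another member (grey) and own bases (orange). Grey covers 2860 bases or slightly more in each alpha member, 2116 or more in each gamma member, and none in 20 of the 22 beta members.

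The deposited values carried this layout. Within 1 library the 13 alpha members other than Pcdhac2 differed by a factor of 1.05 to 1.08 between the highest and the lowest, and the 21 gamma members other than Pcdhgc3 by a factor of 1.09 to 1.12. In replicate bc204 Pcdha1 and Pcdhac1 were both at 5478.55. Across the 9 libraries the correlation of log2 values between pairs of alpha members had a median of 0.991 (range 0.969 to 0.999 over 91 pairs), and between gamma members without Pcdhgc3 a median of 0.992 (range 0.941 to 0.999 over 210 pairs). Beta members, which have no constant exon, had a median of 0.39 (range -0.64 to 0.964 over 210 pairs). Members with separate promoters were thus listed at nearly 1 level per cluster, as they are when a read of the constant exons is listed under every member. The 14 alpha rows and the 22 gamma rows largely repeat the same reads within each cluster, so a count of members that move together in those clusters is not a count of independent genes.

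Pcdha8 was the lowest alpha member and Pcdhgb8, annotated as a polymorphic pseudogene, the lowest gamma member, each in 9 of 9 libraries. The value of the lowest member is an upper limit of what the constant exons contributed, since it also holds that member's own reads. It made up 83.3% to 99.2% (median 95.3%) of the values of the other 13 alpha members and 71.6% to 99.1% (median 96.3%) of the other 21 gamma members, averaged over libraries. Per length of constant exon, it came to 1895 to 2311 normalized reads per kb in the alpha cluster and 4125 to 4668 in the gamma cluster, so this limit was higher in the gamma than in the alpha cluster in every library. Sense rows that are no members also lie over member exons: Gm38182, whose 1530 exon bases all lie within gamma members, was at 2681 to 3223, and Gm42416 at 2151 to 2579. Minus-strand rows over members were lower than these. Gm37446 covers 1927 exon bases of Pcdhb12 and was at 0 to 1.66, where Pcdhb12 itself was at 110 to 168. BC037039, with 1559 of 2205 exon bases over 1 member, was at 83.4 to 163.9. Gm26672, with 5187 of 6918 exon bases over 4 members, was at 52.7 to 89.6. The part of member reads in these rows was not tested.

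Reads can also be shared between variable exons by sequence. Among windows of 50 bases, the read length stated for the study, 9.83% to 23.4% of those in the own sequence of the 12 alpha members outside the C-type also occurred in another member, the most between Pcdha7 and Pcdha8 (313 windows). None of the windows of Pcdhac1, Pcdhac2, Pcdhgc3, Pcdhgc4 or Pcdhgc5 did. In the beta cluster the share was 0 to 11.99%, led by Pcdhb11 and Pcdhb12 (239 windows) and by Pcdhb7 and Pcdhb9 (189 windows). Among gamma members the B-type genes shared 2.67% to 16.85%, led by Pcdhgb1 and Pcdhgb2 (412 windows), and the A-type genes 0 to 4.44%. How reads with several matches were counted is not given in the sources used here, so values of these pairs are uncertain where they differ from each other by little.

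Levels of the named members were as follows, in normalized reads with the SD over libraries, and their order is that of the mean over all 9 libraries, which need not hold in each genotype. Pcdhac2, the alpha member nearest to the constant exons, was the highest of its cluster at 7058 ± 109 in Fezf2+/+ (n = 3), 7204 ± 613 in Fezf2-/- (n = 4) and 6992 ± 328 in Fezf2-/-; Fezf2-EnR libraries (n = 2). Pcdhac1 (5904 ± 124, 6043 ± 484 and 5911 ± 199) and Pcdha8 (5853 ± 135, 5994 ± 487 and 5872 ± 211) were the lowest, and Pcdha5 and Pcdha9 came next below Pcdhac2 with means of 6158 to 6406. The Fezf2-/- libraries of litter m3 bounded the whole cluster: for Pcdha8, replicate bc204 was at 5420 and replicate bc207 at 6611, with all 7 other libraries between them. Pcdhgc3 was the highest member of all at 13040 ± 708, 13213 ± 417 and 13717 ± 960, followed by Pcdhgc4 (10250 ± 625, 10699 ± 397 and 10538 ± 223) and Pcdhga11 (10228 ± 571, 10629 ± 471 and 10444 ± 91.8). Pcdhgc5 (9365 ± 515, 9711 ± 378 and 9655 ± 265) and Pcdhgb8 (9289 ± 507, 9612 ± 374 and 9571 ± 304) were the lowest gamma members. Beta members were far lower in number of reads. Pcdhb19 (582 ± 125, 540 ± 74.0 and 667 ± 151), Pcdhb17 (540 ± 42.4, 509 ± 12.3 and 638 ± 116) and Pcdhb22 (438 ± 27.9, 446 ± 49.3 and 542 ± 18.7) were the highest, and Pcdhb10 (78.1 ± 10.2, 87.4 ± 13.2 and 103 ± 3.06) and Pcdhb6 (76.0 ± 8.5, 72.0 ± 11.2 and 63.0 ± 17.97) the lowest of those tested. Pcdhb1, at 0 to 2.18, was the only member under the filter (a mean of at least 10 over the 9 libraries) and was not tested.

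**Figure D2:**
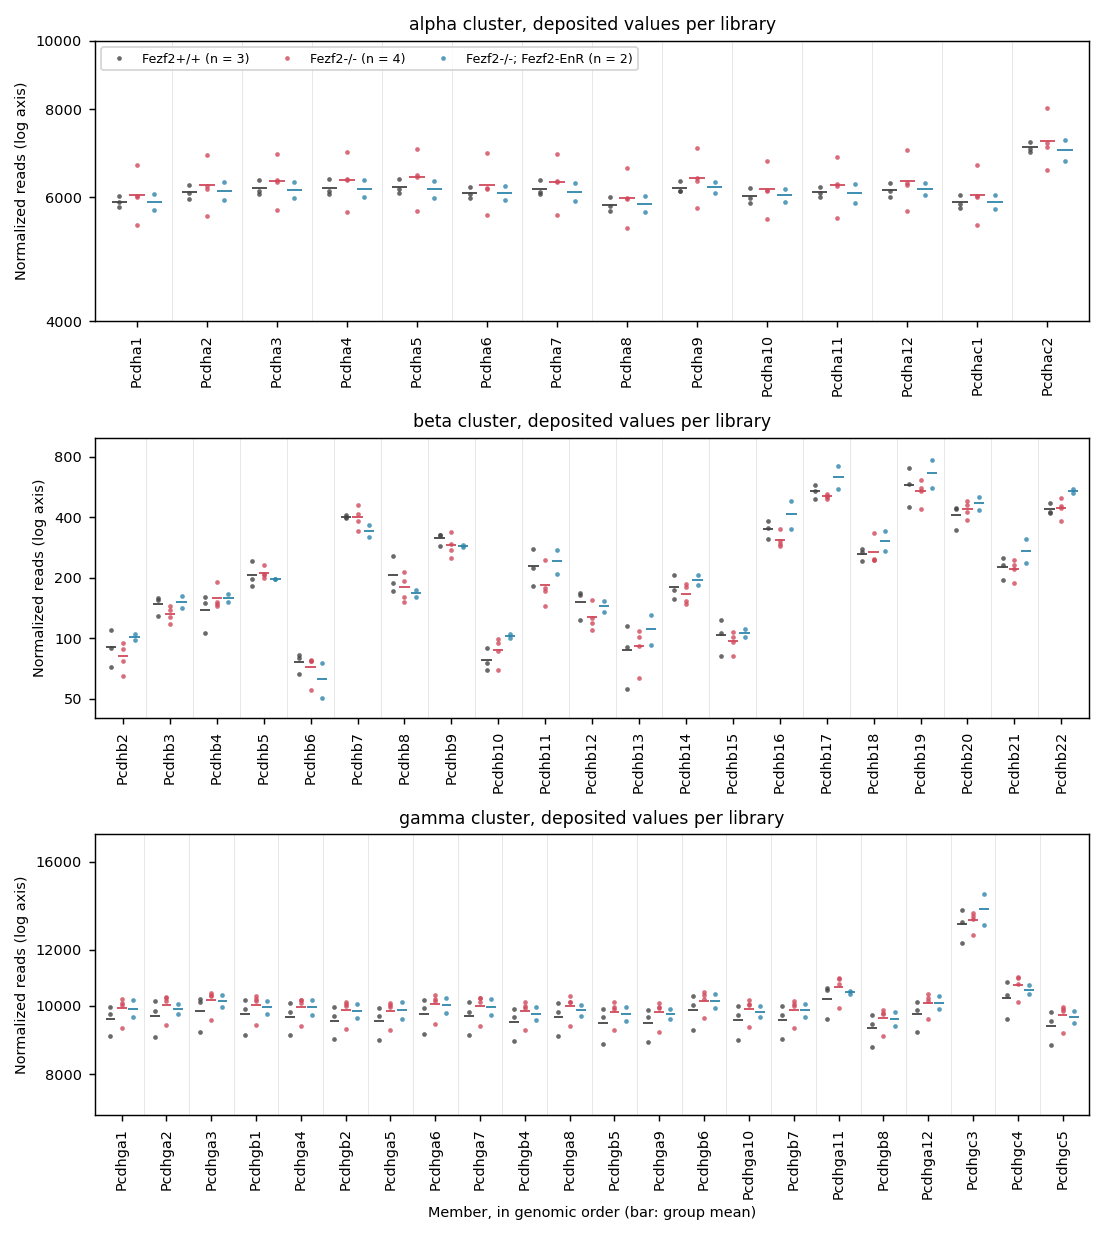
Deposited normalized reads (y axis, log scale, a different range in each panel) of the 57 members tested, in genomic order, with 1 point per library and a bar at each group mean: Fezf2+/+ (n = 3, grey), Fezf2-/- (n = 4, red) and Fezf2-/-; Fezf2-EnR (n = 2, blue). Alpha and gamma members sit at nearly 1 level per cluster apart from Pcdhac2 and Pcdhgc3, whereas beta members spread from 50.3 to 774.

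No member passed the test in Fezf2-/- against Fezf2+/+ cortex. With limma on log2(value + 1), 0 of 57 members had an adjusted p under 0.05, where 0.858% of the 16197 genes tested did, and 0 had an unadjusted p under 0.05, where 10.8% of all genes did. The libraries of the 2 genotypes did not overlap for 0 members, against 13.0% of all genes. edgeR and DESeq2 on the recovered reads also called 0 members. The alpha members lay 0.03 to 0.04 higher on the log2 scale in Fezf2-/- libraries (median 0.03) and the gamma members 0.02 to 0.06 higher (median 0.05), against a median of 0.00 over all genes tested. These repeated rows share their reads, and their 95% intervals ran from -0.12 to 0.19, the widest bounds over both clusters. Pcdha9 (0.04, 95% interval -0.10 to 0.19) and Pcdhgc4 (0.06, -0.06 to 0.19) were the most raised of their clusters, and Pcdha7 (0.03, -0.12 to 0.17) and Pcdhgc3 (0.02, -0.11 to 0.15) the least. A difference in the use of 1 variable exon is diluted in such a value by the shared reads.

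Beta members were the more variable in the same comparison, with 7 higher and 14 lower in Fezf2-/- libraries and a median log2 fold change of -0.08. Pcdhb11 differed most: it was at 280, 223 and 182 in the Fezf2+/+ libraries and at 146, 179, 245 and 171 in the Fezf2-/- libraries. The groups overlapped, and the log2 fold change of -0.31 (SE 0.19, 95% interval -0.73 to 0.12) had an adjusted p of 0.627 by limma and p = 0.2286 in the exact two-sided permutation test, whose smallest possible p is 0.0286. The difference was -0.15 without Fezf2+/+ replicate bc201, -0.20 without Fezf2-/- replicate bc204 and -0.16 with the litter as a block. Pcdhb4 was highest in the other direction, at 161, 150 and 106 in Fezf2+/+ and 145, 148, 151 and 191 in Fezf2-/- libraries (log2 fold change 0.20, 95% interval -0.15 to 0.55, limma adjusted p = 0.706). Within litter m1 alone its log2 fold change was -0.05, so its direction differed there from that over all litters, and it was 0.02 without Fezf2+/+ replicate bc203 and 0.11 without Fezf2-/- replicate bc207. The 95% intervals of the 21 beta members tested reached from -0.73 to 0.67.

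The transgene was compared with the null background in Fezf2-/-; Fezf2-EnR against Fezf2-/- libraries. Again 0 of 57 members passed at an adjusted p under 0.05 by limma, against 0.766% of all genes, and 0 by edgeR or DESeq2. At an unadjusted p under 0.05 there were 3 members, all higher with the transgene, against 16.9% of all genes. The libraries did not overlap for 6 members, against 24.6% of all genes. Both counts lay wholly among the 21 beta members tested. The alpha and gamma rows largely repeat the same reads within each cluster, so 57 is not a number of independent genes. The alpha members lay 0.02 to 0.05 lower (median -0.03) and the gamma members between -0.02 and 0.05 (median -0.01), with 95% intervals from -0.22 to 0.20 over both clusters, while all genes had a median of 0.00. Pcdha2 (-0.02) and Pcdha5 (-0.05) bounded the alpha members, and Pcdhgc3 (0.05) and Pcdhga11 (-0.02) the gamma members. Of the 21 beta members, 16 were higher and 5 lower, with a median of 0.20.

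Pcdhb16 had the largest difference. It was at 295, 305, 288 and 350 in the Fezf2-/- libraries and at 351 and 481 in the Fezf2-/-; Fezf2-EnR libraries, so the groups nearly touched without overlap and replicate bc209 alone stood apart. Its log2 fold change was 0.41 (SE 0.14, 95% interval 0.10 to 0.72), with an unadjusted p of 0.0134, an adjusted p of 0.194 by limma and p = 0.0667 in the exact permutation test, the smallest that 4 against 2 libraries can give. Within litter m3, the only litter with both genotypes, replicate bc208 at 351 compared with 295 and 350. Without replicate bc209 the log2 fold change was 0.19 (limma adjusted p = 0.804), and without replicate bc208 it was 0.64 and passed (adjusted p = 0.0348).

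Pcdhb17, its neighbour, showed the same dependence on 1 library. Its Fezf2-/- libraries lay close together at 523, 494, 507 and 512, and the Fezf2-/-; Fezf2-EnR libraries at 556 and 720. The log2 fold change was 0.31 (SE 0.11, 95% interval 0.07 to 0.55, unadjusted p = 0.0149, limma adjusted p = 0.200), 0.13 without replicate bc209 (adjusted p = 0.811) and 0.50 without replicate bc208 (adjusted p = 0.0276). Pcdhb22 rested less on a single library, at 383, 454, 444 and 503 in Fezf2-/- and 529 and 555 in Fezf2-/-; Fezf2-EnR libraries. Its log2 fold change was 0.29 (SE 0.11, 95% interval 0.04 to 0.53, unadjusted p = 0.0244, limma adjusted p = 0.231) and stayed at 0.25 without replicate bc209. The exact permutation test gave p = 0.1333 for Pcdhb22. Within litter m3, replicate bc208 at 529 compared with 383 and 503 in the Fezf2-/- replicates bc204 and bc207. Pcdhb19, the beta member with the most reads, was at 774 in replicate bc209 but at 561 in replicate bc208, inside the Fezf2-/- range of 440 to 618. In the lower direction Pcdhb7 was at 343, 385, 463 and 418 in Fezf2-/- and 367 and 318 in Fezf2-/-; Fezf2-EnR libraries, which overlapped (log2 fold change -0.23, 95% interval -0.49 to 0.04, limma adjusted p = 0.358), with -0.12 without replicate bc209. Replicate bc209 held the highest value of 9 of the 21 beta members tested and replicate bc204, a Fezf2-/- library, the lowest value of 9, and the part of the library itself in these differences was not tested. With the litter as a block the log2 fold changes were 0.31 for Pcdhb16 (limma adjusted p = 0.406), 0.24 for Pcdhb17 (0.393) and 0.30 for Pcdhb22 (0.343).

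**Figure D3:**
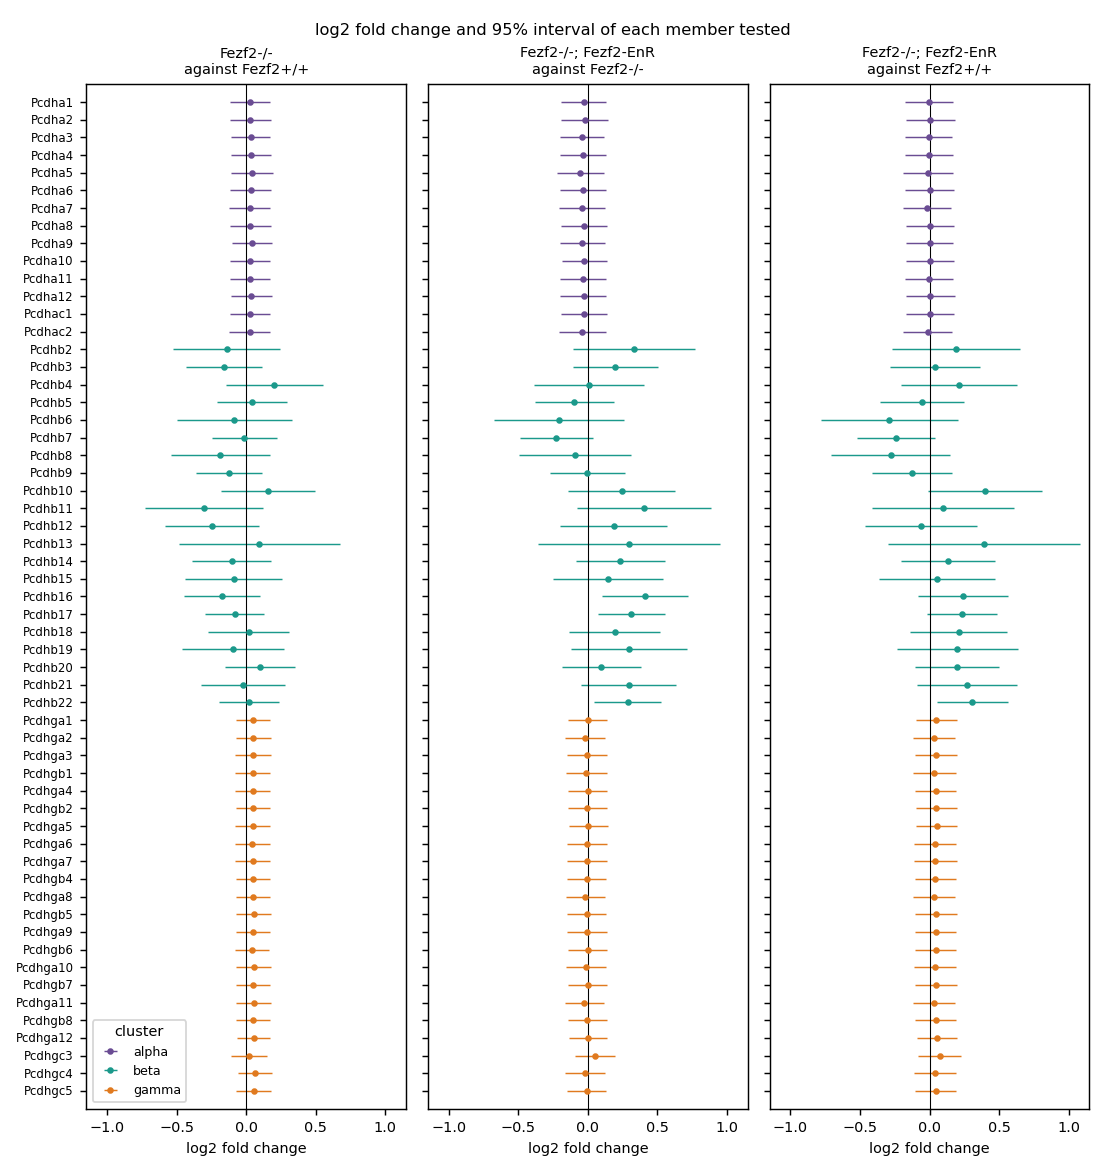
log2 fold change (x axis, on the log2(value + 1) scale) with its 95% interval from limma for each of the 57 members tested in the 3 comparisons, coloured by cluster. The intervals of all alpha and gamma members hold 0 and those of beta members are wider; only Pcdhb16, Pcdhb17 and Pcdhb22 in the middle panel and Pcdhb22 in the right panel leave 0 outside, before adjustment.

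**Figure D4:**
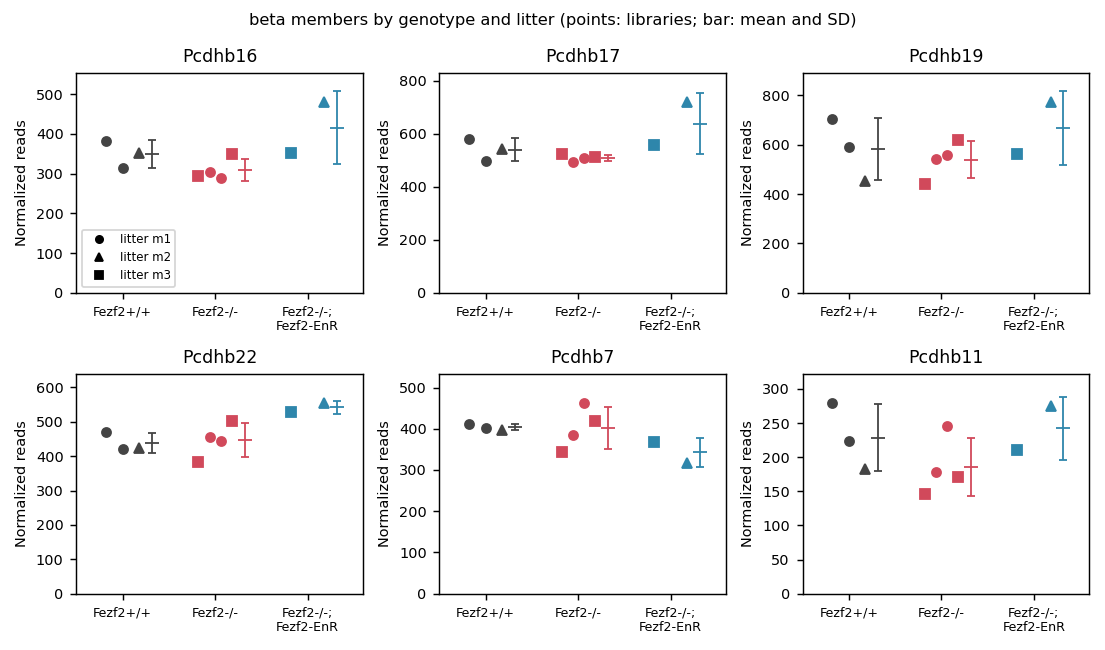
Deposited normalized reads (y axis, from 0) of 6 beta members by genotype, with 1 point per library shaped by litter and the mean and SD beside them. Litter m2 gave the highest Fezf2-/-; Fezf2-EnR value of Pcdhb16 (481), Pcdhb17 (720) and Pcdhb19 (774), and both Fezf2-/-; Fezf2-EnR libraries of Pcdhb22 lie above every other library.

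Against Fezf2+/+ libraries, the Fezf2-/-; Fezf2-EnR libraries also gave 0 of 57 members at an adjusted p under 0.05 by limma, against 0.117% of all genes, and 0 by edgeR or DESeq2. At an unadjusted p under 0.05 there was 1 member, Pcdhb22, against 19.3% of all genes. The libraries did not overlap for 3 members (Pcdhb7, Pcdhb10 and Pcdhb22), against 34.6% of all genes. Both counts again lay among the 21 beta members tested. Pcdhb22 was at 471, 421 and 424 in the Fezf2+/+ libraries, below both Fezf2-/-; Fezf2-EnR values given above, with a log2 fold change of 0.31 (SE 0.12, 95% interval 0.05 to 0.56, unadjusted p = 0.0229, limma adjusted p = 0.194). The exact permutation test gave p = 0.1, the smallest that 3 against 2 libraries allow. Within litter m2 it was at 424 in the Fezf2+/+ and 555 in the Fezf2-/-; Fezf2-EnR library. Pcdhb10 had the largest difference upward, at 75.2, 89.4 and 69.6 against 101 and 105 (log2 fold change 0.40, 95% interval -0.01 to 0.81, limma adjusted p = 0.267). Pcdhb6 had the largest downward, at 79.4, 66.3 and 82.2 against 75.7 and 50.3 (-0.29, 95% interval -0.78 to 0.20, adjusted p = 0.507), and without replicate bc209 its difference was 0.00056. The alpha members lay between -0.02 (Pcdha7) and 0.01 (Pcdha2), and the gamma members between 0.03 (Pcdhga8) and 0.07 (Pcdhgc3), with medians of 0.00 and 0.04 against -0.01 over all genes. The 2 comparisons with Fezf2-/-; Fezf2-EnR share their libraries, so a gene that leads in both is no separate observation.

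Summed over a cluster, the largest log2 ratio of deposited values was that of the beta members for the transgene against Fezf2-/- libraries. The sums of those groups overlapped, with replicate bc208 at 5324 and Fezf2-/- replicate bc207 at 5439. The SD given below is that of single libraries, not of a difference between group means. The log2 ratio of the summed beta level was -0.06 in Fezf2-/- against Fezf2+/+, 0.18 for the transgene against the null background and 0.12 for the transgene against Fezf2+/+, with an SD between libraries of the same genotype of 0.13. Without replicate bc209 the middle value was 0.09 and without replicate bc204 0.13. For the alpha cluster the ratios were 0.03, -0.04 and -0.003, with an SD of 0.09, and for the gamma cluster 0.05, -0.004 and 0.04, with an SD of 0.07. The alpha and gamma sums count each constant-exon read once per member.

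To look at the variable exons themselves, the value of the lowest member of the cluster in the same library was subtracted from each alpha and gamma member. What is left counts reads outside the constant exons beyond those of Pcdha8 or Pcdhgb8, and it is a small difference of 2 large counts for the low members. Pcdhga4 (3157 shared bases), Pcdhgb1 (3154), Pcdhga8 (2227) and Pcdhgb4 (2224) share more than the 2116 constant bases with other members. Reads of those further shared bases are not removed from their levels. On this scale the members separated. Pcdhac2 was at 1037 to 1421 over the 9 libraries, and held 27.9% to 29.9% of the summed alpha level in the group means. Pcdha2 to Pcdha7, Pcdha9, Pcdha11 and Pcdha12 lay between 174 and 480, and Pcdha10 between 135 and 192. Pcdha1 (22.9 to 74.7) and Pcdhac1 (29.9 to 65.2) were barely above Pcdha8. In the gamma cluster Pcdhgc3 was at 3549 to 4610 and held 30.9% to 34.7% of the summed level in the group means, Pcdhgc4 was at 844 to 1169, Pcdhga11 at 723 to 1120, and Pcdhgc5 at 56.8 to 118. By their mean over the libraries, C-type genes thus held both the highest and, next to the members set to 0, the lowest level of each cluster. Summed over the alpha cluster, these levels were at 4055 to 4277 in the Fezf2+/+, 3954 to 4684 in the Fezf2-/- and 3604 to 3879 in the Fezf2-/-; Fezf2-EnR libraries, so the last lay below all others, with a log2 ratio of -0.21 against Fezf2-/- and -0.15 against Fezf2+/+. Every term of that sum subtracts the same Pcdha8 value. Reads listed under every member cancel in each term, but the counting error of the reads of Pcdha8 alone enters the sum once per member. Correlations between pairs of members across the 9 libraries had medians of 0.16 in the alpha and 0.30 in the gamma cluster on this scale.

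**Figure D5:**
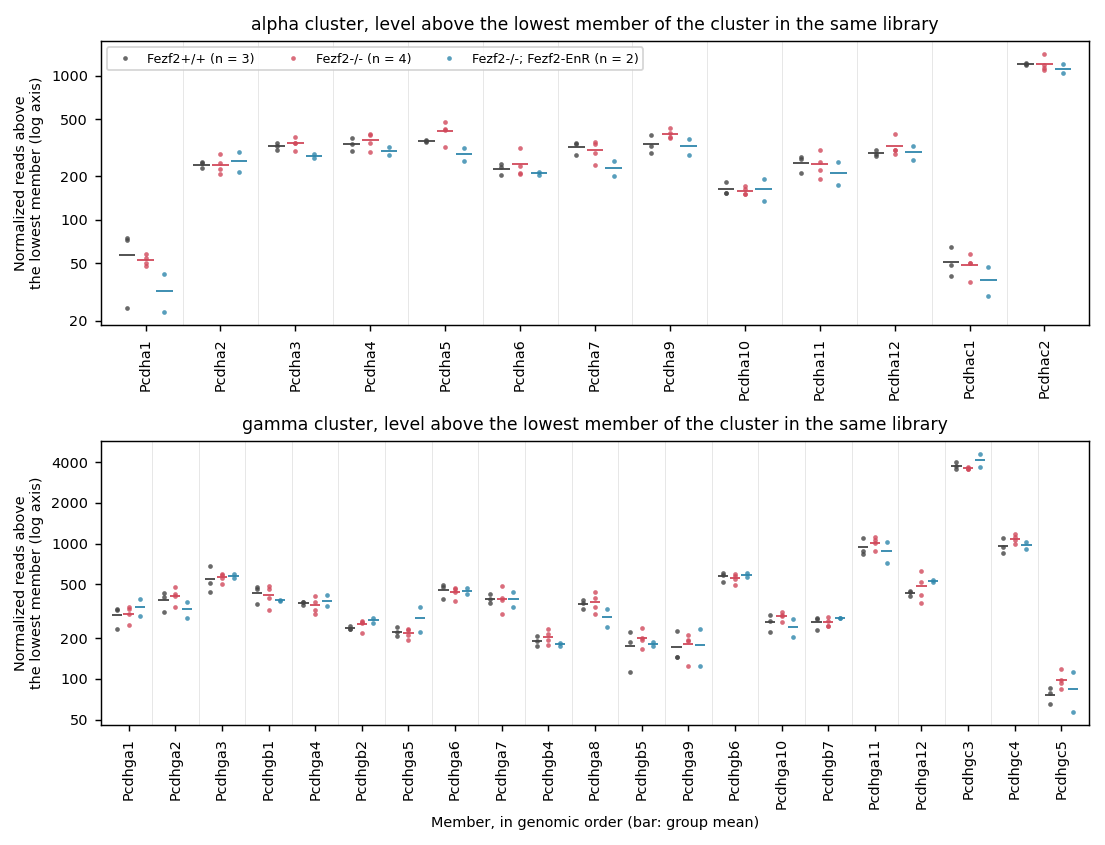
Level above the lowest member of the same cluster in the same library, in normalized reads (y axis, log scale), for 13 alpha and 21 gamma members in genomic order, with 1 point per library and a bar at each group mean. Pcdhac2 and Pcdhgc3 stand above all others of their clusters, and the group means of Pcdha1, Pcdhac1 and Pcdhgc5 lie below all others, in every genotype.

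Per length, a comparison between genes can be made. Pcdhgc3 came to a mean of 1116 normalized reads per kb of own exon sequence above the lowest member, Pcdhac2 to 392, Pcdhga11 to 364 and Pcdhgc4 to 293. Pcdha5 (155) and Pcdha9 (145) followed in the alpha cluster, whose median was 116 over 13 members, while the gamma median was 126 over 21 members. Bases shared with another member were left out of the length, so Pcdhga4 and Pcdhgb1 can be overstated on this scale. The C-type genes Pcdhac1 (18.5) and Pcdhgc5 (16.0) were the lowest. Beta genes, taken at their full value over all exon bases, had a median of 49.0 per kb and ranged from 0.27 for Pcdhb1 to 123 for Pcdhb20, 118 for Pcdhb17 and 111 for Pcdhb7. Ranked by position along the cluster, the level per kb of beta genes gave a Spearman coefficient of 0.48 and a Pearson coefficient of 0.44 over 22 genes, as a description of neighbouring genes in the same libraries, with 0.08 and 0.32 for alpha and 0.04 and 0.30 for gamma members.

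The levels above the lowest member were tested with limma in the fit of all genes, a quantity chosen after the deposited values had been seen. There were 0 members called of 34 in each of the 3 comparisons. At an unadjusted p under 0.05 there were 0 in the null against the wild type, 5 for the transgene against the null background and 1 for the transgene against the wild type, where the shares of all genes were those given above. Pcdha5 had the lowest p. It was at 320, 427, 480 and 421 in the Fezf2-/- libraries and at 314 and 257 in the Fezf2-/-; Fezf2-EnR libraries, with 360, 352 and 345 in Fezf2+/+. The log2 fold change with the transgene was -0.52 (SE 0.15, 95% interval -0.85 to -0.20, unadjusted p = 0.00495, limma adjusted p = 0.145), and p = 0.0667 in the exact permutation test. Within litter m3, replicate bc208 at 314 compared with 320 and 421 in the Fezf2-/- replicates bc204 and bc207. Without replicate bc204 the difference was -0.64 and passed narrowly (adjusted p = 0.0497). Pcdha3 (-0.29, unadjusted p = 0.0218, limma adjusted p = 0.223), Pcdha7 (-0.41, unadjusted p = 0.0296, adjusted p = 0.247) and Pcdhga8 (-0.38, unadjusted p = 0.0428, adjusted p = 0.281) were also lower, and with the litter as a block their differences were -0.20, -0.20 and -0.18. Without replicate bc209 those of Pcdha7 (-0.24) and Pcdhga8 (-0.16) were also smaller. Of the 13 alpha members, 11 had a negative difference, with a median of -0.23, and of the 21 gamma members 10 did, with a median of 0.01. All levels of a cluster subtract the same value in a library, so these counts are not of independent genes. Pcdha1, near the lowest member, had the largest alpha difference (-0.74, 95% interval -1.63 to 0.16, limma adjusted p = 0.372), which was -0.32 without replicate bc209.

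Pcdhgc3, the C-type gene with the highest level, was the member of these 5 that was higher. It was at 3549, 3666, 3551 and 3640 above the lowest member in the Fezf2-/- libraries and at 3682 and 4610 in the Fezf2-/-; Fezf2-EnR libraries, where replicate bc208 lay just above the Fezf2-/- libraries and replicate bc209 far above them. Its log2 fold change was 0.19 (SE 0.09, 95% interval 0.01 to 0.38, unadjusted p = 0.0443, limma adjusted p = 0.283), 0.03 without replicate bc209, and 0.36 without replicate bc208 (adjusted p = 0.0258). Pcdhga5 had the largest gamma difference upward (0.34, 95% interval -0.01 to 0.70, limma adjusted p = 0.303). It rested on replicate bc209 too, at 339 against 223 in replicate bc208 and 193 to 235 in the Fezf2-/- libraries, and was 0.04 without replicate bc209 and 0.65 without replicate bc208, where it was called (adjusted p = 0.0358). In Fezf2-/-; Fezf2-EnR against Fezf2+/+ libraries Pcdha7 was at 339, 338 and 282 against 256 and 201.04 (log2 fold change -0.49, 95% interval -0.87 to -0.11, unadjusted p = 0.0165, limma adjusted p = 0.179), with -0.32 without replicate bc209 and -0.28 with the litter as a block. Pcdha9 (0.25, 95% interval -0.02 to 0.52) and Pcdhgc5 (0.36, -0.13 to 0.84) had the largest differences upward in Fezf2-/- against Fezf2+/+ libraries and Pcdha7 (-0.08) and Pcdhga4 (-0.06) the largest downward. Within litter m1 the difference of Pcdha9 was 0.12 and that of Pcdhgc5 0.15, and the latter was 0.05 with the litter as a block. Without Fezf2+/+ replicate bc203 that of Pcdha9 was 0.16. Pcdhac2 was even between those genotypes at means of 1205 and 1210 (log2 fold change -0.002, 95% interval -0.20 to 0.20).

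Genes that act on or with the clusters were read from lists. Promoter choice in these clusters depends on the insulator protein CTCF and the cohesin ring, which loop a promoter to its enhancer, and on DNA methylation and silencing factors. Of 22 such genes, all passed the filter and 0 were called in any comparison by limma, with median log2 fold changes of 0.02 in the null against the wild type, 0.15 for the transgene against the null background and 0.17 for the transgene against the wild type. Over all genes tested these medians were 0.00, 0.003 and -0.005. Values are given in that order below. Ctcf was at 2868 to 3551 over the 9 libraries (log2 fold changes -0.02, 0.14 and 0.13) and the cohesin subunit Rad21 at 4479 to 5843 (0.02, 0.09 and 0.11). For both genes replicate bc209 was the highest library, and replicate bc208 (2986 and 4772) lay inside the Fezf2+/+ range. The part of the library itself in these differences was not tested. Tet1, which oxidises methylated cytosine, was at 0.24, 0.45 and 0.69 (limma adjusted p = 0.583, 0.194 and 0.114). The last was the largest difference of the list in that comparison. Its values followed the litters, at 1066 to 1295 in the m1 libraries and 1426 to 1995 in those of m2 and m3. No Fezf2-/-; Fezf2-EnR mouse came from m1. Dnmt3a, a DNA methyltransferase, led the list in the null against the wild type (0.31, limma adjusted p = 0.347). Tet2 led for the transgene against the null background (0.48, limma adjusted p = 0.229). In Fezf2-/- libraries Dnmt3a was at 4530 and 4745 in litter m3 and at 3754 and 3705 in m1. Fezf2+/+ libraries were at 3163 and 3127 in m1 and 3833 in m2. Tet2 was at 497 to 644 in m1 and 655 to 908 in m2 and m3. The part of the litter in these differences was not tested. Smchd1, a chromatin silencer of the clusters, had 0.06, 0.11 and 0.16.

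Of 30 intracellular partners, which include the kinases, actin regulators and proteases that meet the cytoplasmic tail, 1 was higher and 0 lower in Fezf2-/- against Fezf2+/+ libraries and 0 were called in the other 2 comparisons. Prkca, a protein kinase C isoform, was the one called (log2 fold change 0.64, limma adjusted p = 0.00754), with -0.25 (adjusted p = 0.265) in Fezf2-/-; Fezf2-EnR against Fezf2-/- libraries. Ptk2 and Ptk2b, kinases that the tails bind, were at -0.07 and -0.35 in Fezf2-/- against Fezf2+/+ libraries with adjusted p of 0.821 and 0.182, and Adam10, which sheds the extracellular part, at -0.19 (0.370). Of 19 genes that flank the clusters, 16 passed the filter and 0 were called, with medians of -0.06, -0.03 and 0.00. Taf7, which lies between the beta and gamma clusters, had log2 fold changes of -0.06, 0.16 and 0.10, and Diaph1, which follows the gamma cluster, had -0.01, 0.12 and 0.12.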

How the data were processed

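Members were taken by symbol. The members, lists and tests were chosen with earlier results of these data known. The authors sequenced bulk cortex RNA in paired-end reads and deposited 1 table of values per gene, a signal of read counts divided by a size factor per library. Per the submitters' processing notes, STAR, Bowtie and DESeq were used with the build mm10. Counter, annotation release, strand setting and treatment of reads with several matches are not given in the sources used here. In all 9 libraries 100.0% of the values from 80 to 160 were whole multiples (within 0.1 reads) of the value of 1 read, so whole reads were recovered. All 58 identifiers, with their versions, occur in GENCODE M21 (GRCm38, the same build), which gave exons and coordinates. 1 member differs there in name (Pcdha10 of the table).

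log2(value + 1) was tested with limma 3.58.1 (eBayes with a trend, R 4.3.3) on the 16197 genes that averaged at least 10, with one coefficient per genotype, all 9 libraries and Benjamini-Hochberg adjustment. Fold changes are on that log2 scale and understate changes of low genes. Calls had an adjusted p under 0.05. Nothing ties mice beyond their litter. edgeR 4.0.16 and DESeq2 1.42.0 on recovered reads, other pseudocounts, filters and scalings, the litter as a block and each library left out were alternatives. Named members were the 5 C-type genes, the 3 highest and 2 lowest tested of each cluster, the largest rise and fall of each cluster in each comparison, and any member called. Members with an unadjusted p under 0.05, and others in the text on levels above the lowest member, were named after their values were seen. The limma script was tested on simulated data. Sequences of the members are not shown.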

Additional observations from a re-analysis of the deposited data

Results flagged for a closer look

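In the 4 Fezf2-/- libraries, 8 of 91 groups of values examined held a library far from the rest (a gap to its neighbour that took up most of the range, by Dixon's criterion), where chance gives about 1 in 20. Replicate bc204 was the low one in 5 gamma members that share the constant-exon reads: Pcdhga2 at 9396, Pcdhga3 at 9561, Pcdhga4 at 9360, Pcdhgb2 at 9279 and Pcdhga5 at 9252, with the next lowest at 10157, 10326, 10105, 9994 and 9965. Replicate bc207 was the high one for Pcdhb4 (191 against 151 for the next) and Pcdhb18 (335 against 249), and replicate bc206 the low one for Pcdhb6 (55.3 against 77.3). Both bc204 and bc207 came from litter m3, and the cause was not tested.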

How the results depend on the processing

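The count of members called was 0 in each comparison under every pseudocount, filter, scaling, count test and litter setting run. Leaving out 1 library kept 0 in both comparisons with Fezf2+/+ and gave 0 to 2 in Fezf2-/-; Fezf2-EnR against Fezf2-/-, where Pcdhb16 and Pcdhb17 were called without replicate bc208. With no adjustment the counts were 0 for Fezf2-/- against Fezf2+/+, 3 for Fezf2-/-; Fezf2-EnR against Fezf2-/- and 1 for Fezf2-/-; Fezf2-EnR against Fezf2+/+. Summing levels above the lowest member, a quantity added after seeing the data, moved the log2 ratio of the alpha sum from -0.035 to -0.209 for the transgene against Fezf2-/- and from -0.003 to -0.150 against Fezf2+/+. Of 417 repeated fold changes of named members 399 kept their direction and side of the threshold, 16 changed sign and 2 passed. With each library left out, log2 fold changes of the transgene against Fezf2-/- ran from -0.069 to 0.027 for Pcdha2 and from -0.019 to 0.124 for Pcdhgc3. Against Fezf2+/+ they ran from -0.037 to 0.051 for Pcdha2, from -0.059 to 0.025 for Pcdha7, from -0.58 to 0.00056 for Pcdhb6 and from -0.013 to 0.065 for Pcdhga8. For Fezf2-/- against Fezf2+/+ they ran from -0.019 to 0.076 for Pcdha7, from -0.005 to 0.089 for Pcdha9 and from -0.023 to 0.056 for Pcdhgc3. With the litter as a block Pcdha2 was at -0.00025 against Fezf2+/+ and Pcdhga11 at 0.030 against Fezf2-/-, both for the transgene. Within litter m1, Pcdhb4 was at -0.054 and Pcdhgc3 at -0.00021. With each library left out, the count of called levels above the lowest member was 0 to 2 in Fezf2-/-; Fezf2-EnR against Fezf2-/- (Pcdha5 without replicate bc204, Pcdhgc3 and Pcdhga5 without replicate bc208) and 0 in the other comparisons. These levels changed sign for Pcdha7 (0.020 within litter m1, -0.165 to 0.028 with each library left out) and Pcdhga4 (-0.144 to 0.007) in Fezf2-/- against Fezf2+/+. For Pcdha2 they ran from -0.158 to 0.288 for the transgene against Fezf2-/- and from -0.167 to 0.280 against Fezf2+/+, with -0.051 there under the litter block. The cause was not tested. The 2 Fezf2-/-; Fezf2-EnR libraries were judged by the spread estimated over the 3 genotypes, and the lone library left in some settings is assumed to vary like the others.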
